A study of Mus musculus with 6 samples.

Results

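RNA splicing factors are the proteins that find exon ends in a new transcript and join the exons. The set described here is a list of 39 mouse genes whose products do this work, matched by gene symbol to the deposited count table. Of the 39 listed genes 38 were found among the 25771 genes of the table, and Srsf2 is not analysed here. The 38 lie on 14 chromosomes and none is X-linked in the mm10 gene annotation.

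Testes of adult C57BL6 mice were taken apart with enzymes, and droplet libraries that count the 3′ ends of transcripts were made from the cells. There were 3 libraries of the genotype named NONO and 3 of the genotype named NONO△ER, written NONO deltaER from here on. The labels do not say what the deltaER allele removes, nor whether each library came from a separate animal, so p-values measure the spread between libraries, which may be technical. Cells are named WT in the first 3 libraries (TA, TB and TC) and KI in the other 3 (TD, TE and TF), which was read as NONO and NONO deltaER. The mice received no treatment.

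The table held 46495 cells, with 6261 to 8909 cells and 81042216 to 110018960 unique molecular identifiers (UMI, each a counted transcript molecule) per library. The submitters had sorted the cells into 17 fine classes, 12 of them germ cells, and every value below is a sum of UMI over the cells of a class in a library. Levels are given as CPM, the UMI of a gene scaled by all UMI of that class and library, so they describe a share of the cell's transcripts. Class names are the submitters' and were checked against marker genes, which did not bear out all of them. Summed markers of undifferentiated spermatogonia stood at 929 to 1352 CPM in their own class and at 9.59 to 29.2 CPM in preleptotene cells, and early spermatocyte markers at 8274 to 9580 CPM in preleptotene cells. The class named Differentiated SG carried markers of early spermatocytes at 5774 to 6623 CPM and those of differentiating spermatogonia at 930.2 to 1226 CPM. The class named IPac/eDip SC, read here as late pachytene to early diplotene spermatocytes, carried pachytene and diplotene markers at 4521 to 4809 CPM, but these stood as high in the leptotene to early pachytene class (4824 to 5098 CPM) and do not tell the classes apart. They also stood at 4666 to 4806 CPM in the class named Round ST(Step 1-2), where round spermatid markers were at 261 to 436 CPM and which the submitters' broad classes place with spermatocytes, so this name goes against its markers. In step 3 the same lists were at 4009 to 4271 and 936 to 1120 CPM, and in steps 4-5 at 2623 to 3025 and 2466 to 2743 CPM. Elongated spermatid markers (protamines and their kin) were also counted at 4068 to 8404 CPM in undifferentiated spermatogonia and at 22812 to 35320 CPM in Sertoli cells, a background of transcripts from other cells whose part in the results was not tested. Altogether 650 cell barcodes occurred in more than 1 library.

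Splicing runs on small nuclear ribonucleoproteins (snRNPs), which recognise the splice sites and the branch point. SR proteins bind exons and favour their inclusion, and many hnRNP proteins act against them. Tissue-regulated RNA-binding proteins such as PTBP, CELF, MBNL and RBFOX shift the balance between alternative exons. The testis is known for its many alternative transcripts. Male germ cells pass through mitotic spermatogonia, a long meiotic prophase and round spermatids, and transcription stops while the nucleus is condensed in elongating spermatids.

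The 38 genes together took their greatest share of transcripts around the start of meiosis. Their summed share was 1.24% ± 0.0514 (SD, n = 6 libraries) in undifferentiated spermatogonia and 1.60% ± 0.0754 in preleptotene spermatocytes. It stood at 0.982% ± 0.0295 in late pachytene to early diplotene cells, 0.539% ± 0.0209 in round spermatids of steps 4-5 and 0.0358% ± 0.00157 in elongated spermatids. Per cell the order differed. All genes together gave a mean of 4415 UMI per cell in undifferentiated spermatogonia and 35478 in late pachytene to early diplotene cells. The same genes gave 54.7 UMI per cell in undifferentiated spermatogonia, 25.7 in preleptotene cells, 349 in late pachytene to early diplotene cells and 0.973 in elongated spermatids. Among the 4 named somatic classes the share ran from 0.628% in Sertoli cells to 1.02% in macrophages.

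Most of the genes had their highest germ cell level before the pachytene stage. The highest mean CPM lay in undifferentiated spermatogonia for 5 genes, in the class named Differentiated SG for 11, in preleptotene spermatocytes for 14 and in the leptotene to early pachytene class for 7. The last 7 were Hnrnpf, Hnrnpl, Hnrnpm, Hnrnpu, Ptbp2, Sf3b1 and Tra2b. Only Ddx5, an RNA helicase, had its highest mean later, in round spermatids of step 3. The highest mean over all named classes was in a germ cell class for 36 genes and in a somatic class for Mbnl1 and Ptbp1. These are descriptions, and neighbouring classes often overlapped in their libraries.

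**Figure D1:**
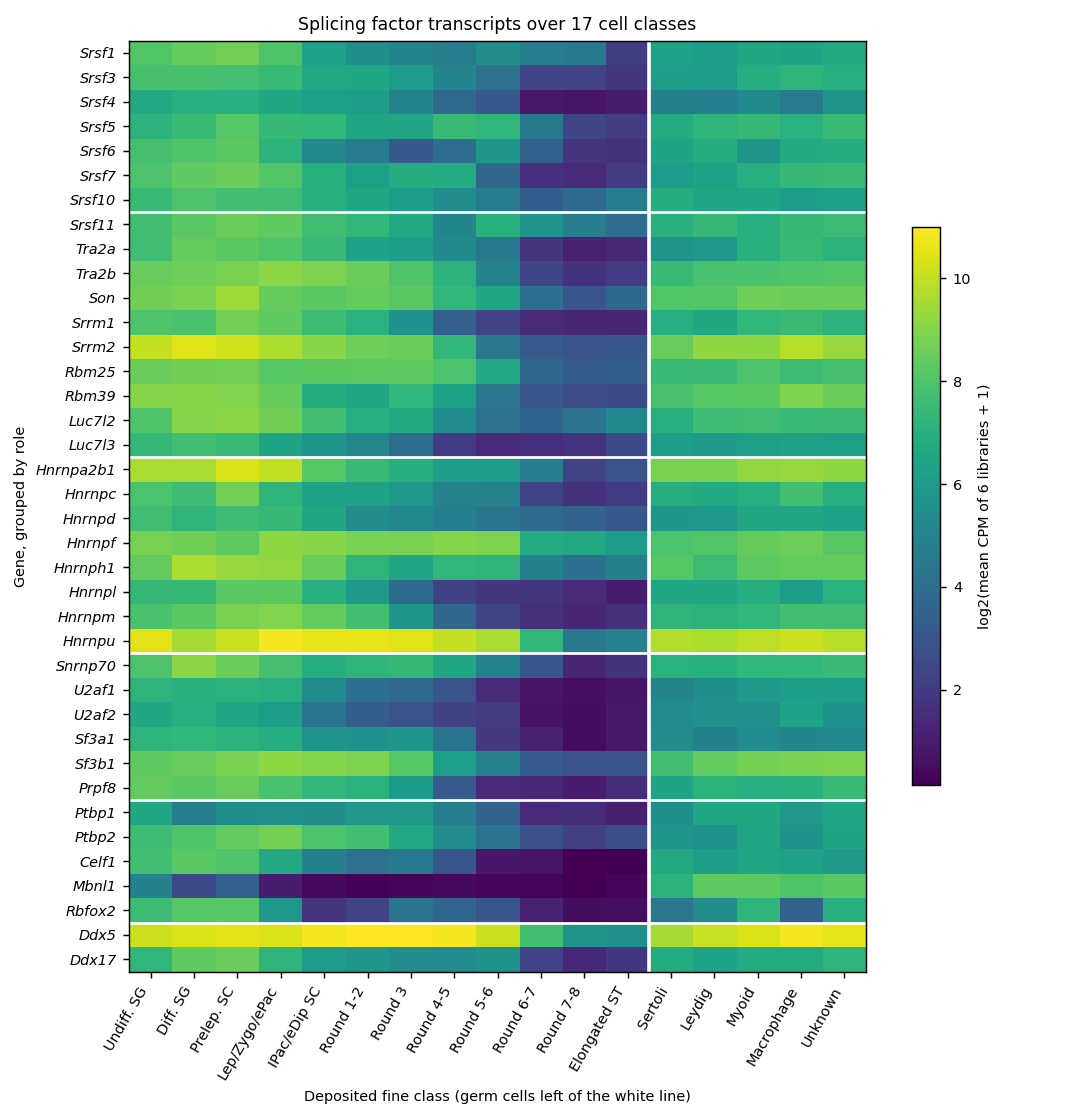
Mean level of each of the 38 splicing factor genes (vertical axis, grouped by role, separated by white lines) in the 17 deposited classes (horizontal axis), as log2 of the mean CPM of 6 libraries plus 1. Colour is brightest on the left, before and at the start of meiosis, and darkest in round spermatids of steps 6-7 and later. Ddx5 and Hnrnpu stay bright up to round spermatids of steps 5-6 and are lower from steps 6-7. Mbnl1 is dark in every germ cell class after the earliest ones.

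Stage changes were tested in a single edgeR quasi-likelihood fit over all classes with the library as a block. A gene was called when its Benjamini-Hochberg adjusted p over 16039 genes was under 0.05, its change at least 2-fold and its direction the same in all 6 libraries. Folds between such different cells depend on how libraries are scaled. The median of all genes at entry into meiosis was -0.43 on the log2 scale with trimmed-mean scaling (TMM), -1.40 with DESeq2 size factors and -1.47 with total UMI. Counts are therefore given first for TMM and then for calls that all 3 scalings made alike, a rule chosen after the values had been seen.

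At entry into meiosis, from undifferentiated spermatogonia to late pachytene to early diplotene spermatocytes, Mbnl1 and Rbfox2 fell most. TMM called 6 of the 38 genes lower, where 35.8% of all genes were called lower, and 9 higher, where 29.6% were. All 6 lower calls held under the 3 scalings (35.6% of all genes), and none of the 9 higher calls did (17.2%). The 6 were Mbnl1, Rbfox2, Celf1, Srsf6, U2af2 and Rbm39. Of these only Mbnl1 had its highest germ cell mean in undifferentiated spermatogonia. Celf1 (300 CPM), U2af2 (126 CPM) and Rbm39 (540 CPM) had theirs in the class named Differentiated SG. Srsf6 (306 CPM) and Rbfox2 (287 CPM) had theirs in preleptotene cells, so their levels fell only after that class. Both shares of the splicing factors were below those of all genes. Of the tissue-regulated proteins 3 of 5 fell, while Ptbp1 was not called (log2 change -0.08 with TMM) and Ptbp2 was called higher with TMM alone (1.37).

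Rbfox2, which binds GCAUG-type sites beside regulated exons, ranged from 129 to 237 CPM with a median of 195 in undifferentiated spermatogonia. In late pachytene to early diplotene cells it ranged from 1.32 to 3.33 CPM with a median of 2.71. The groups were far apart in all 6 libraries. The log2 change was -5.11 ± 0.129 (SE; edgeR adjusted p = 1.79e-80), and it was -3.20 when counted as UMI per cell. The fall came late: Rbfox2 still had 287 ± 40.1 CPM in preleptotene cells and 59.9 ± 6.24 CPM in the leptotene to early pachytene class.

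Mbnl1, a muscleblind protein that promotes adult-type exon choice in many tissues, was low in the germ line from the start. It ranged from 22.4 to 34.7 CPM with a median of 29.9 in undifferentiated spermatogonia and from 0 to 0.614 CPM in late pachytene to early diplotene cells, where the 6 libraries held 15 UMI in all. The log2 change was -5.26 ± 0.291 (edgeR adjusted p = 1.27e-38). Its level in Leydig cells was 322 ± 88.9 CPM and in Sertoli cells 141 ± 21.6 CPM, above every germ cell library. Mbnl1 and Rbfox2 were the only ones of the 6 that were also called lower per cell.

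Celf1, which regulates splicing and the stability of transcripts, ranged from 174 to 255 CPM (median 202) in undifferentiated spermatogonia and from 24.1 to 31.5 CPM (median 28.4) in late pachytene to early diplotene cells. The log2 change was -1.87 ± 0.0770 (edgeR adjusted p = 2.25e-53). Per cell it was 0.08, so the share of Celf1 fell while its number of molecules per cell hardly moved. Srsf6, an SR protein, went from 221 ± 21.5 to 36.0 ± 1.73 CPM. U2af2, the large subunit of the factor that binds the polypyrimidine tract, went from 99.3 ± 15.7 to 19.3 ± 1.60 CPM. Rbm39, an SR-related partner of the U2AF factors, went from 513 ± 50.9 to 116 ± 7.94 CPM. These 3 also turned in direction per cell, to log2 changes of 0.38 for Srsf6, 0.61 for U2af2 and 0.85 for Rbm39.

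The 9 genes that only TMM called higher were Sf3b1, Ddx5, Hnrnpm, Tra2b, Hnrnpf, Ptbp2, Srsf5, Hnrnpu and Hnrnph1. Sf3b1, the branch point subunit of the U2 snRNP, had 265 to 353 CPM (median 317) in undifferentiated spermatogonia and 492 to 508 CPM (median 502) in late pachytene to early diplotene cells. Its libraries did not overlap, and its log2 change was 1.74 with TMM and 0.67 with total UMI. Ddx5 went from 1161 ± 146 to 1794 ± 42.4 CPM, and Hnrnpm, an hnRNP that binds GU-rich sequence, from 238 ± 22.8 to 344 ± 23.2 CPM. These are rises of share below 2-fold on the CPM scale.

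After meiosis, from late pachytene to early diplotene cells to round spermatids of steps 4-5, the splicing factors went down more often than genes at large. TMM called 22 of the 38 lower, where 24% of all genes were called lower, and 1 higher, where 34.3% were. All 23 calls held under the 3 scalings, where 24% of all genes were called lower and 29.7% higher. The median log2 change of the 38 was -1.20, against 0.20 for all genes, with TMM. With total UMI these medians were -1.70 and -0.26.

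Called falls reached every role but the helicases. Of the snRNP and splice site proteins 5 of 6 fell, of the SR-related proteins 7 of 10, of the SR proteins 4 of 7, of the hnRNP proteins 4 of 8 and of the tissue-regulated proteins 2 of 5. Neither helicase was called, though Ddx17 was lower in 6 of 6 libraries (TMM log2 change -0.25, edgeR adjusted p = 0.000675).

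Hnrnpl, which binds CA-rich sequence, showed the largest fall. It ranged from 111 to 129 CPM (median 128) in late pachytene to early diplotene cells and from 3.01 to 4.76 CPM in round spermatids of steps 4-5. The log2 change was -4.50 ± 0.0823 (edgeR adjusted p = 1.7e-100). Hnrnpm went from 306 to 366 CPM (median 349) to 10.8 to 13.8 CPM (median 12.7), a log2 change of -4.30 ± 0.0763 (edgeR adjusted p = 2.7e-102). For both genes the libraries of the classes were far apart.

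Srrm1, a coactivator that bridges SR proteins and the spliceosome, went from 180.5 to 214 CPM (median 195) to 9.07 to 10.5 CPM (median 10.2). Its log2 change was -3.79 ± 0.0725 (edgeR adjusted p = 9.2e-98). Prpf8, the large scaffold at the heart of the spliceosome, went from 159 ± 3.21 to 8.44 ± 1.16 CPM, and Luc7l3, a relative of a U1 snRNP protein, from 56.3 ± 2.16 to 3.07 ± 0.169 CPM. Sf3b1 went from 501 ± 6.60 to 75.4 ± 2.33 CPM. These genes belong to the core machinery and to its helpers alike.

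Rbfox2 was the only gene called higher. It ranged from 10.7 to 12.9 CPM (median 11.9) in round spermatids of steps 4-5, against 1.32 to 3.33 CPM before, with a log2 change of 2.70 ± 0.138 (edgeR adjusted p = 7.15e-43). The increase appeared between the class named Round ST(Step 1-2), at 4.03 ± 0.926 CPM, and step 3, at 19.2 ± 1.60 CPM. The regained level was a small part of that in spermatogonia.

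The 15 genes that were not called included the abundant Ddx5, Hnrnpu and Hnrnpf. Ddx5 stood at 1794 ± 42.4 and then 1864 ± 59.6 CPM, Hnrnpf at 543 ± 20.9 and then 509 ± 19.5 CPM, and Srsf5, an SR protein, at 159.5 ± 8.71 and then 179 ± 5.58 CPM. Srsf5, Ddx5, Hnrnpf, Srsf7 and Snrnp70 were higher in 6 of 6 libraries with an edgeR adjusted p under 0.05 but short of 2-fold, at TMM log2 changes from 0.25 for Snrnp70 to 0.67 for Srsf5. With total UMI Hnrnpf (-0.09), Srsf7 (-0.18) and Snrnp70 (-0.25) had the opposite sign, and per cell all of those named did. Hnrnpc, Hnrnph1, Srsf6, Son, Ddx17 and Ptbp1 were lower in 6 of 6 libraries with an edgeR adjusted p under 0.05, also short of 2-fold. Their TMM log2 changes ran from -0.90 for Hnrnpc to -0.20 for Ptbp1. Hnrnpc, Hnrnph1 and Srsf6 were called lower with DESeq2 size factors and with total UMI.

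**Figure D2:**
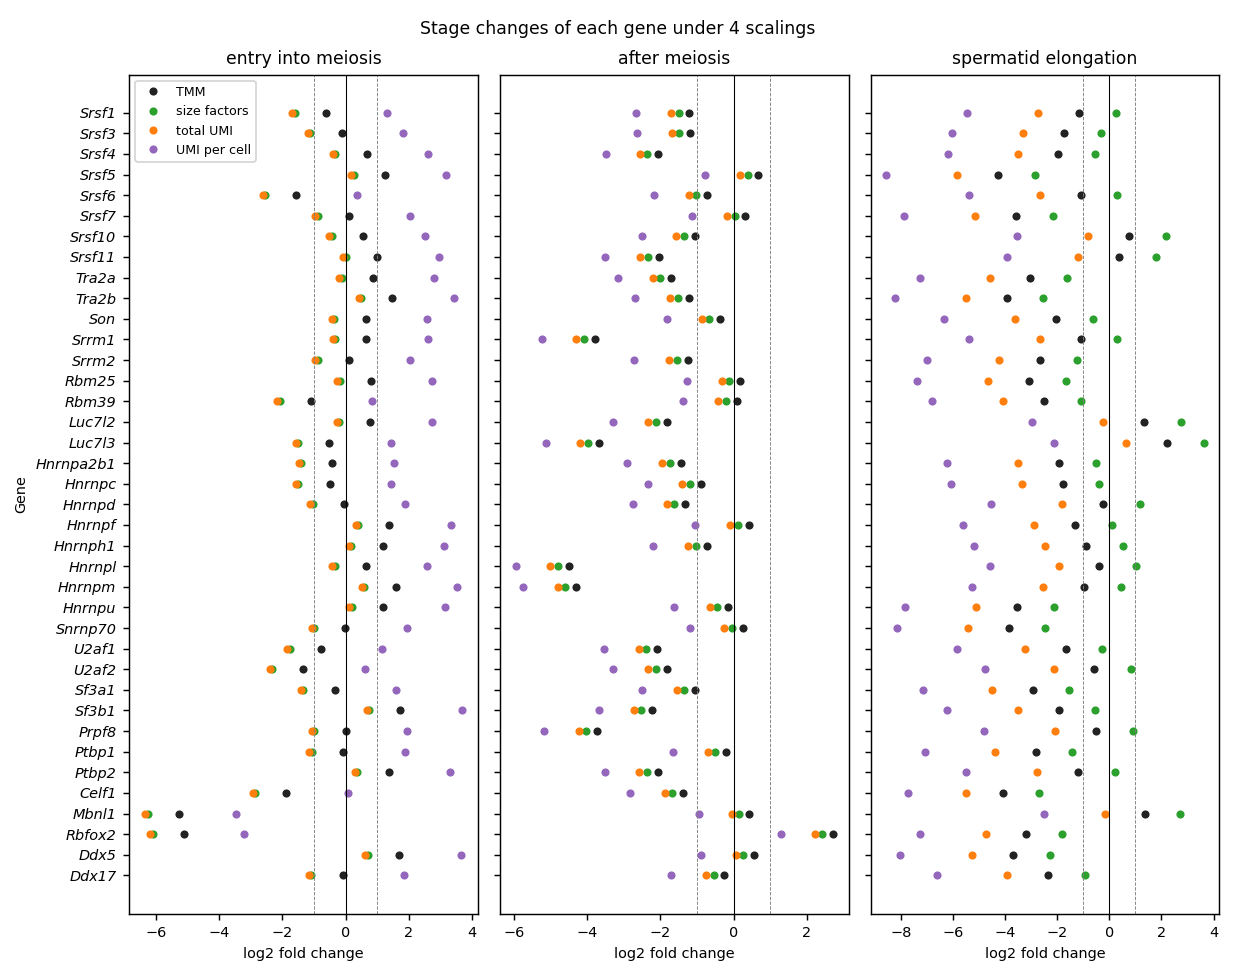
Log2 fold change of each of the 38 genes (vertical axis) at entry into meiosis, after meiosis and at spermatid elongation, with TMM (black), DESeq2 size factors (green), total UMI (orange) and UMI per cell (purple). Dashed lines mark a 2-fold change. The first 3 scalings lie close together after meiosis, where 22 genes are lower and Rbfox2 is higher, and spread apart at elongation.

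Between single steps of round spermatids the list did not move as a block. The step rule, chosen after seeing the values, asks for a mean CPM change of at least 2-fold in the same direction in 6 of 6 libraries, and it carries no test. From step 3 to steps 4-5, 16 of the 38 genes were lower, against 18.7% of all genes. From steps 4-5 to steps 5-6, 16 were lower (24.7% of all genes) and Srsf6 and Srsf11 were higher (14% of all genes). From steps 5-6 to steps 6-7, 27 were lower (43.3% of all genes).

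Srsf11, an SR-related protein, ranged from 29.8 to 37.7 CPM (median 34.3) in steps 4-5 and from 119 to 138 CPM (median 128) in steps 5-6. It had been at 97.7 to 111 CPM in step 3 and was at 44.3 to 56.2 CPM in steps 6-7. The level thus dipped and came back in every library. Srsf6 ranged from 6.89 to 9.55 CPM in step 3, from 13.0 to 17.3 CPM in steps 4-5 and from 52.0 to 57.3 CPM in steps 5-6. Srsf1, the founding SR protein, went from 24.7 ± 2.32 to 44.9 ± 2.29 CPM over the same step, short of the rule. Which transcript forms lie behind these 3′ end counts is not known from the table.

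The promoters of Srsf6 and Srsf11 are shown because these genes moved together at steps 5-6. They are the RefSeq windows of 300 bases around each start, in GRCm38.p6: Srsf6 at chr2:162931258-162931557 on the plus strand, the upstream start of Srsf11 at chr3:158036557-158036856 and its internal start at chr3:158031699-158031998, both on the minus strand. Capitals mark GGGCGG (the GC box) and GCGCATGC (a core of NRF1 sites) on either strand.
Srsf6: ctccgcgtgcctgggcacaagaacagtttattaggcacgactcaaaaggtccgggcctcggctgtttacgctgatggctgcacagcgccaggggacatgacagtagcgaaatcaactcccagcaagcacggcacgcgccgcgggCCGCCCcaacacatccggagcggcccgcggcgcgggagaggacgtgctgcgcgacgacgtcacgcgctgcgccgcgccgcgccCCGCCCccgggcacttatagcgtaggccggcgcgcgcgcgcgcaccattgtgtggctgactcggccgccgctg
Srsf11 upstream start: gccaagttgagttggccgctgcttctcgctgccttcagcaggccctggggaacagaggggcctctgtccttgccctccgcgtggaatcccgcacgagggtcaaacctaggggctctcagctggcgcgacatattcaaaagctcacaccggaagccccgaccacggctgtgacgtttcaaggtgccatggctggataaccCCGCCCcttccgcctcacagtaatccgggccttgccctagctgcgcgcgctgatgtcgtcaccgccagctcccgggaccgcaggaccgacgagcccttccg
Srsf11 internal start: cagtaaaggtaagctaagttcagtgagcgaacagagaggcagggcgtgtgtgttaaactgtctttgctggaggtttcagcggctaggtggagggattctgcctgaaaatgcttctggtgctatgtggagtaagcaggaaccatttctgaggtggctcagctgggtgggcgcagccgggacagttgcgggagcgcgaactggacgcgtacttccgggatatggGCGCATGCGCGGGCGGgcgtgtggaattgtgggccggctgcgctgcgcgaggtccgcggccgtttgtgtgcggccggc

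Srsf6 held 2 GC boxes, and each Srsf11 window held 1. The internal start of Srsf11 also held 2 overlapping matches to GCGCATGC on opposite strands. Among the 36 splicing factor genes with a promoter entry, 72.2% held GGGCGG and 13.9% held GCGCATGC, against 38.2% and 3.05% of 27025 genes. The CCAAT box was in 50% of the 36 and 41.1% of all, TATAAA in 16.7% and 15.7%, and TGACGTCA (the cyclic AMP response element) in 2.78% and 2.03%. The median GC content of the splicing factor promoters was 64.2%, against 52.7% for all promoters. A match is a description and no sign of binding.

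**Figure D3:**
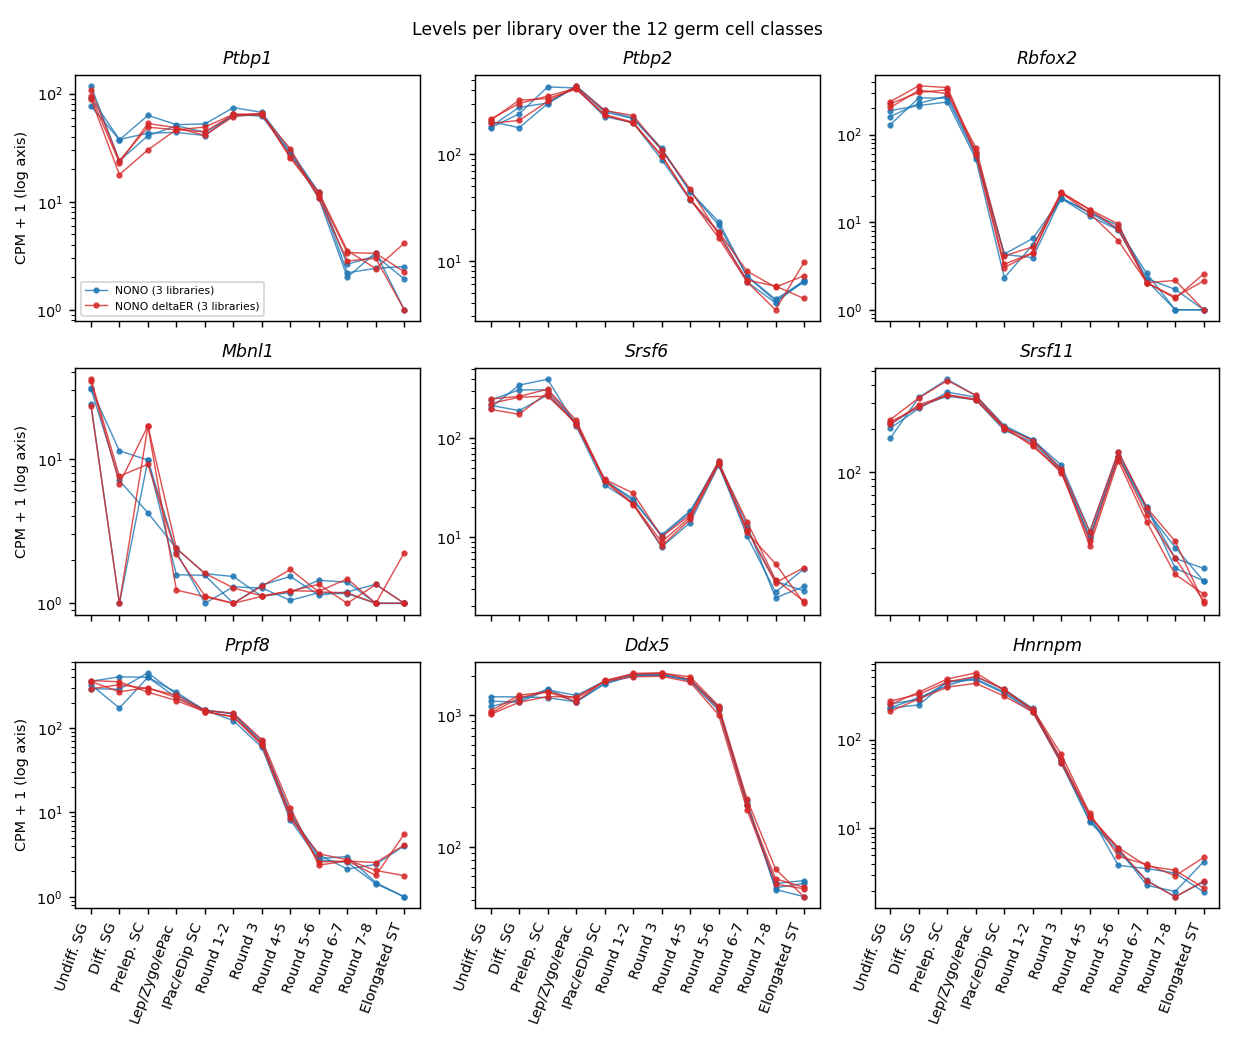
Level per library (CPM plus 1, log axis) of 9 genes over the 12 germ cell classes in order of development, with NONO libraries in blue and NONO deltaER libraries in red. Rbfox2 drops to 1.32 to 3.33 CPM in the IPac/eDip class and reappears at step 3, Srsf6 and Srsf11 peak again at steps 5-6, and Prpf8 and Hnrnpm stand far lower at steps 4-5 than in the IPac/eDip class.

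At spermatid elongation, from round spermatids of steps 4-5 to elongated spermatids, few transcripts of the list were left. TMM called 27 of the 38 lower, where 44.7% of all genes were called lower, and 2 higher, where 9.31% were. Under the 3 scalings 14 lower calls (24.7% of all genes) and no higher call (4.34% of all genes) held. The 14 were Celf1, Ddx5, Hnrnpu, Ptbp1, Rbfox2, Rbm25, Rbm39, Sf3a1, Snrnp70, Srrm2, Srsf5, Srsf7, Tra2a and Tra2b.

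Srsf5 ranged from 172 to 185 CPM (median 181) in steps 4-5 and from 1.08 to 4.64 CPM (median 2.81) in elongated spermatids, where it had 22 UMI in all. The log2 change was -4.27 ± 0.207 (edgeR adjusted p = 1.25e-44). Tra2b, which promotes exon inclusion beside SR proteins, went from 132 to 155 CPM (median 144) to 1.51 to 4.64 CPM (median 3.26), a log2 change of -3.95 ± 0.225 (edgeR adjusted p = 2.74e-37). Celf1 went from 6.81 to 8.06 CPM to a single UMI over the 6 libraries. The libraries of the 2 classes were apart for all 3 genes.

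The 2 genes that TMM called higher were Luc7l3 and Luc7l2, relatives of a yeast U1 snRNP protein. Luc7l3 had 2.86 to 3.25 CPM (median 3.08) in steps 4-5 and 3.42 to 7.58 CPM (median 4.59) in elongated spermatids, from 34 UMI. Luc7l2 had 37.6 to 49.1 CPM (median 39.5) and then 25.1 to 46.7 CPM (median 35.7). The libraries of Luc7l2 overlapped and its mean CPM was lower in elongated spermatids, so its direction turned with the scaling, from a log2 change of 1.33 with TMM to -0.25 with total UMI.

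Pairs of related genes differed in their ratio between germ cell classes. By mean ratio over the 6 libraries the same gene of each pair was ahead in every germ cell class where a ratio was taken. By genotype, Tra2b over Tra2a in the class named Differentiated SG was 1.30 ± 0.0348 in NONO and 0.998 ± 0.0586 in NONO deltaER (n = 3 each). The ratios were not tested between genotypes. Ptbp1 and Ptbp2 encode 2 versions of the polypyrimidine tract binding protein. Ptbp1 ranged from 75.5 to 117 CPM (median 92.0) in undifferentiated spermatogonia and from 16.8 to 36.6 CPM (median 23.0) in the class named Differentiated SG, where it rested on 39 UMI, and came back to 60.9 to 66.1 CPM in round spermatids of step 3. Ptbp2 ranged from 177 to 213 CPM (median 198) in undifferentiated spermatogonia and from 408 to 440.0 CPM (median 423) in the leptotene to early pachytene class. The ratio of Ptbp2 to Ptbp1 UMI was 2.09 ± 0.290 in undifferentiated spermatogonia, 9.10 ± 0.735 in the leptotene to early pachytene class and 1.51 ± 0.131 in round spermatids of steps 4-5.

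Ddx5 and Ddx17 encode sister helicases. Ddx17 ranged from 318 to 470.4 CPM (median 356) in preleptotene cells and from 32.9 to 48.4 CPM (median 42.2) in round spermatids of steps 4-5, while Ddx5 had means of 1485 and 1864 CPM. The ratio of Ddx5 to Ddx17 UMI was 7.59 ± 1.31 in undifferentiated spermatogonia, 4.06 ± 0.493 in preleptotene cells and 46.0 ± 7.44 in steps 4-5. The ratio of Tra2b to Tra2a, a pair of exon-including relatives of SR proteins, was 1.76 ± 0.211 in undifferentiated spermatogonia. It was 3.78 ± 0.541 in steps 4-5 and 1.44 ± 0.225 in steps 5-6. The ratio of Luc7l2 to Luc7l3 was 1.55 ± 0.112 in undifferentiated spermatogonia and 13.6 ± 1.23 in steps 4-5. Each of the 4 ratios differed between some of the classes named by more than the spread over libraries. In steps 4-5 TA, TB and TF stood below TC, TD and TE in the ratios of Ddx5 to Ddx17 and of Tra2b to Tra2a. The first ratio was 38.6 to 40.7 against 48.4 to 55.3, and the second 3.17 to 3.41 against 4.01 to 4.52.

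The rest of the splicing machinery was followed in 3 lists outside the 38 genes, with the calls made alike under the 3 scalings. Of 82 other spliceosome proteins 15 fell and 4 rose at entry into meiosis, 31 fell and 9 rose after meiosis, and 39 fell and 1 rose at elongation. The shares of all genes by the same rule were 35.6% lower and 17.2% higher at entry, 24% and 29.7% after meiosis, and 24.7% and 4.34% at elongation. Of 68 other splicing regulators 29 fell and 4 rose at entry, 21 fell and 16 rose after meiosis, and 22 fell and 0 rose at elongation. Of 7 tested kinases of SR proteins 1 fell and 1 rose at entry, 0 fell and 2 rose after meiosis, and 3 fell and 1 rose at elongation.

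Among those that fell most at entry were Elavl2, from 131 ± 26.5 to 0.0780 ± 0.0931 CPM, and Zrsr2, a minor spliceosome factor, from 199.9 ± 9.77 to 0.218 ± 0.166 CPM. Snrpn, a core snRNP protein, rose from 0.592 ± 0.678 to 13.5 ± 0.982 CPM. After meiosis Khdrbs2, a STAR family RNA-binding protein, rose from 1.06 ± 0.404 to 89.2 ± 8.36 CPM, and Pcbp1, a poly(C) binding protein, fell from 57.5 ± 4.58 to 2.05 ± 0.368 CPM. At elongation Srpk2, a kinase of SR proteins, rose from 503 ± 15.2 to 1323 ± 120 CPM.

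Between the genotypes 1 of the 38 genes passed the test in 1 of the 17 classes. The Nono transcript, named in the genotypes, ranged from 108 to 128 CPM in NONO and from 98.3 to 120.4 CPM in NONO deltaER undifferentiated spermatogonia, so its 3′ end count does not separate the groups. Each class was fitted alone with edgeR's quasi-likelihood test on its 6 libraries.

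Prpf8 was lower in NONO deltaER preleptotene spermatocytes. It stood at 397, 449.9 and 398 CPM in the NONO libraries TA, TB and TC and at 265, 300.4 and 292 CPM in TD, TE and TF, which carry NONO deltaER. All 3 NONO libraries were above all 3 NONO deltaER libraries. The log2 difference was -0.57 ± 0.130 (SE; edgeR adjusted p = 0.0307), from 710 UMI over the 6 libraries, and 0.327% of the genes tested in this class were called. The call was lost without any single library other than TA: the adjusted p ran from 0.0094 without TA to 0.221, and the log2 difference from -0.61 to -0.51. DESeq2 gave a log2 difference of -0.57 with an adjusted p of 0.999.

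Summed markers of pachytene and diplotene spermatocytes were also lower in the NONO deltaER libraries of this class, but did not follow Prpf8 library by library within a genotype. All 6 measured markers had UMI in the class, and their sum was 1042 to 1186 CPM in the NONO and 808.6 to 849 CPM in the NONO deltaER libraries. Their part in the result was not tested. Prpf8, whose gene lies at chr11:75486816-75509449 on the plus strand of mm10, had log2 differences from -0.15 in the Unknown class to 0.27 in myoid cells in the other classes where it was tested. In elongated spermatids, with 14 UMI in all, it was not tested. Next in the preleptotene class came Luc7l3, at a log2 difference of 0.64 ± 0.168 (edgeR adjusted p = 0.0902). Of the 3 outside lists, Celf2 passed in the same class, at a log2 difference of 0.81 (edgeR adjusted p = 0.0307).

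Among undifferentiated spermatogonia 0.0271% of all genes were called and none of the 38, of which 2 had an unadjusted edgeR p under 0.05, as did 1791 of 11064 genes. In preleptotene cells 4 of the 37 tested had one, as did 683 of 5818 genes. In the other 15 classes and over all cells together 0% of genes were called. In the class named Differentiated SG 7 of the 36 tested had an unadjusted p under 0.05, as did 282 of 4455 genes, and in each of the remaining classes and over all cells 1 or 0 had one. DESeq2 called none of the 38 in any class. In the class named Unknown 3 of 35 tested genes were above 0, against 47.7% of all genes tested there. The summed share was 1.05% ± 0.0494 in NONO and 0.838% ± 0.0229 in NONO deltaER (n = 3 each). The lowest edgeR adjusted p of any single gene was 0.999. The NONO library TC stood apart there, with summed stromal markers at 2400 CPM against 8496 to 10472 CPM in the others and pachytene and diplotene markers at 2691 CPM against 530.2 to 976 CPM, and their part in the result was not tested. In myoid cells the sign was the opposite, with 28 of 34 tested genes above 0, against 49.3% of all genes tested there. The summed share was 0.837% ± 0.0439 in NONO and 0.950% ± 0.0897 in NONO deltaER. Summed myoid markers were at 3825 CPM in TC and at 6742 to 16192 CPM in the other libraries. Pachytene and diplotene markers were at 1043 to 2000 CPM in NONO and 540 to 1197 CPM in NONO deltaER myoid cells. The part of these markers was not tested.

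**Figure D4:**
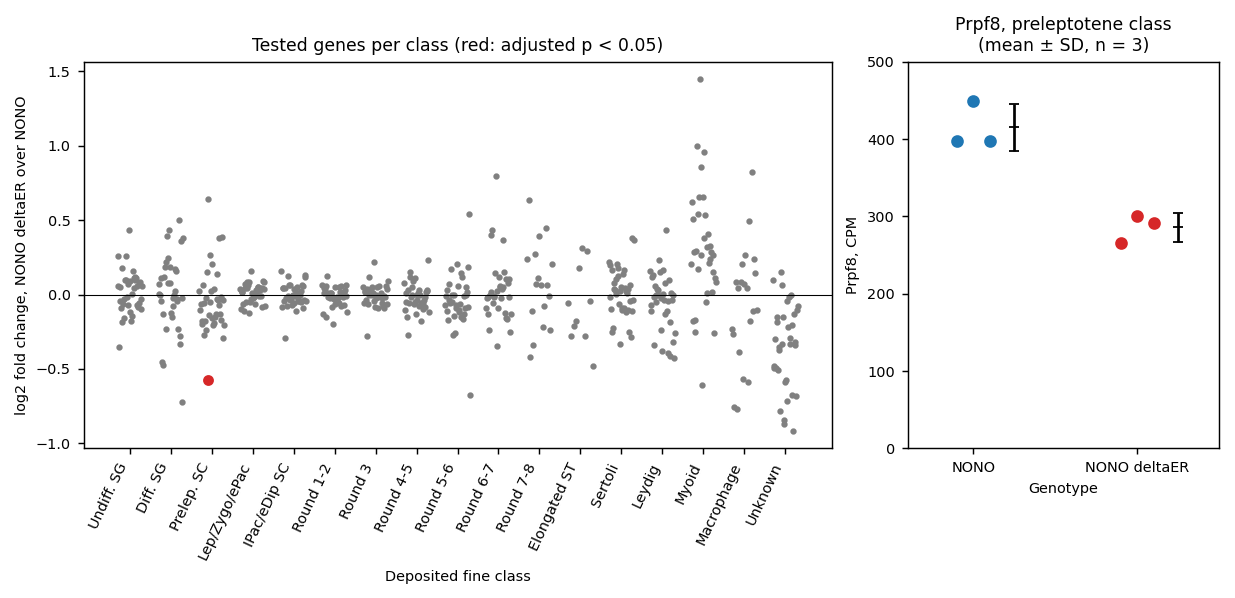
Left, log2 fold change of NONO deltaER over NONO for each tested splicing factor gene (points) in each class, with the call at adjusted p under 0.05 in red. Right, Prpf8 in the preleptotene class per library with mean and SD (n = 3 per genotype), where all NONO points (397 to 449.9 CPM) lie above all NONO deltaER points (265 to 300.4 CPM).

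The stage changes themselves did not differ detectably between the genotypes. When each library's log2 ratio between the classes was compared by limma, 0% of genes were called for entry into meiosis, for the step after meiosis and for elongation. The lowest adjusted p of any splicing factor was 0.464, 0.996 and 0.975. None of the 38, 37 and 37 tested had an unadjusted limma p under 0.05. Of all genes 1592 of 13478 had one at entry, 676 of 14934 after meiosis and 539 of 12755 at elongation. For Rbfox2 and the other genes with a stage call, the call rule already asked for the same direction in all 6 libraries. Their agreement over both genotypes is therefore no separate result.

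Libraries with a higher median mitochondrial percent per cell, which were of both genotypes, had more Hnrnpd and Ddx17 than the others in most classes. Hnrnpd was higher in all 3 of them than in all 3 others in 8 of 12 classes, and Ddx17 in 7 of 11, a description of 2 genes picked for this ratio. Only this direction was counted, and how often genes at large split these libraries was not. Over all cells, not split by class, some of the splicing factors went the other way. Tra2b was at 182 to 191 CPM in these libraries and 222 to 236 CPM in the others, and Hnrnpm at 89.0 to 95.2 and 108 to 126 CPM. Summed round spermatid markers moved with the same libraries, at 212 to 215 CPM in these and 334 to 348 CPM in the others in late pachytene to early diplotene cells, and their part in the result was not tested.

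**Figure D5:**
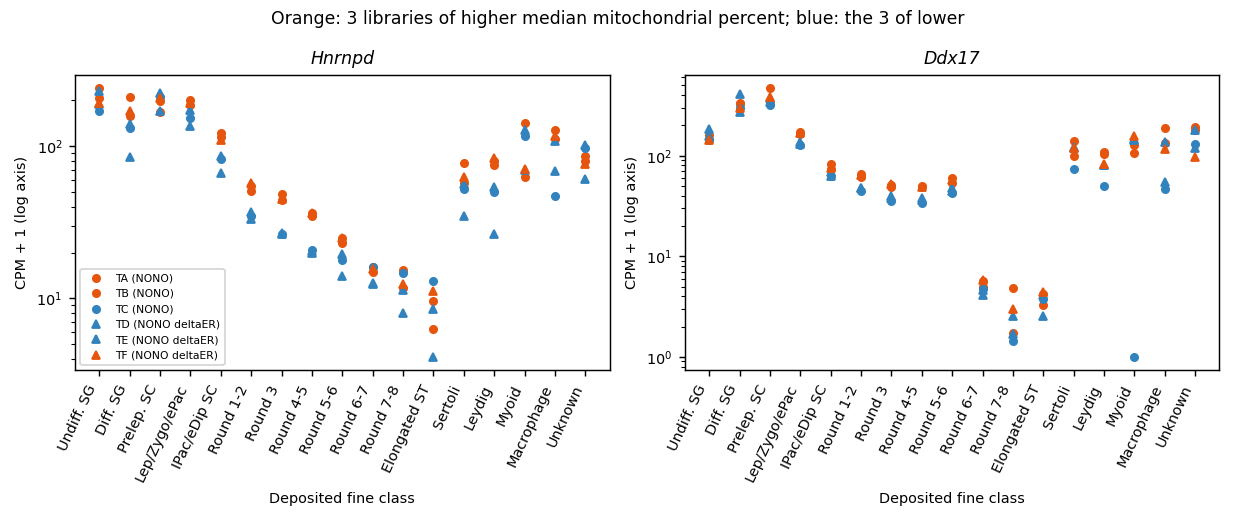
Levels of Hnrnpd and Ddx17 (CPM plus 1, log axis) per library in the 17 classes, with circles for NONO and triangles for NONO deltaER, orange for the 3 libraries of higher median mitochondrial percent and blue for the other 3. In round spermatids of step 3 Hnrnpd stands at 43.2 to 47.4 CPM in the orange and 25.3 to 25.8 CPM in the blue libraries, and each colour holds both genotypes.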

How the data were processed

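Per the labels' protocols the chemistry was 10x Genomics 3′ v2, and reads were processed with Cell Ranger 2.1.1 on mm10, per the submitters' processing notes. The deposited table holds raw UMI counts per gene and cell, and the deposited cell table gives cell classes and the mitochondrial percent. All cells had at least 500 UMI and at most 5% mitochondrial counts. No doublet caller was run here. No source used here states whether counting used strand, and 12 of the 38 genes share exon sequence with a gene on the other strand and 2 with one on the same strand.

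UMI counts were summed per class and library, for classes with at least 20 cells in a library. Tests used edgeR 4.0.16, limma 3.58.1 (prior count 2 CPM) and, as an alternative, DESeq2 1.42.0, in R 4.3.3, with Benjamini-Hochberg adjustment over all tested genes and a threshold of 0.05, and were tested on simulated data. For single classes, genotype was the only term. Genes and lists were chosen with earlier results of these data known. Values per library are given for members called between genotypes, for the 3 largest called changes in each direction of each stage change and for 4 pairs of related genes; of other splicing genes, some of the 3 largest called changes each way. Step changes used a pseudocount of 0.5 CPM and genes with at least 30 UMI in the classes compared. Alternatives were other scalings, tools, filters, cell choices and leaving out each library.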

Additional observations from a re-analysis of the deposited data

How the results depend on the processing

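Of the results, the counts after meiosis held best: 22 genes lower became 34 with UMI per cell and otherwise stayed within 1.5 times. At entry into meiosis the 9 higher became 0 with DESeq2 size factors, 0 with total UMI, 0 under the 3 scalings alike and 32 per cell, and the 6 lower became 16, 18, 6 and 2. At elongation the 2 higher became 5 with size factors, 0 with total UMI, per cell or under the 3 scalings alike, 1 without the 5% of cells with the most UMI and 4 with the 2 classes alone, and the 27 lower became 14 with size factors and under the 3 scalings alike. Among the genes called with TMM, the direction turned per cell at entry for Celf1 (0.080), Srsf6 (0.38), U2af2 (0.61) and Rbm39 (0.85), with size factors at elongation for Hnrnpf (0.10), Ptbp2 (0.22), Srrm1 (0.30), Srsf1 (0.24) and Srsf6 (0.31), and for Luc7l3 at elongation (-2.12 per cell) and Luc7l2 at elongation (-0.25 with total UMI and -2.99 per cell). With step 3 in place of steps 4-5 it turned for Sf3a1 after meiosis (0.054). Without the library as a replicate block 10 genes were higher and 6 lower at entry.

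Between genotypes the 1 call became 0 with DESeq2, with cells of at least 1000 UMI, without the 5% of cells with the most UMI, with mitochondrial percent as a covariate and with equal numbers of cells. It became 2 with no filter on low counts, where Rbfox2 in undifferentiated spermatogonia was added (log2 difference 0.46, edgeR adjusted p = 0.0442). Leaving out each library in turn gave 0 to 1. The causes were not tested. The labels give no pairing of libraries between genotypes, so no paired analysis was made. The library letters of the cells could not be tied to the numbered samples. Depth per cell was lowest in macrophages (median 1032 UMI), where 1270 genes could be tested, the Unknown class (1248.5) and preleptotene cells (1253), and depth also limits elongated spermatids, where most of the 38 genes had few UMI.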

Other observations

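Splicing genes on the X chromosome, all outside the 38, differed in their course from splicing genes on other chromosomes. Other X-linked genes were not counted here, so the course cannot be read as particular to splicing genes. Of the other splicing genes tested, 150 lie elsewhere and 7 on the X chromosome: Hnrnph2, Mbnl3, Nono, Rbm10, Rbm3, Rbmx and Zrsr2. At entry into meiosis 7 of 7 were called lower under the 3 scalings, against 38 of 150 on other chromosomes and 35.6% of all genes. After meiosis 6 of 7 were called higher, against 21 of 150 and 29.7% of all genes. Nono went from 114 ± 10.4 CPM in undifferentiated spermatogonia to 0.271 ± 0.210 CPM in late pachytene to early diplotene cells and 3.98 ± 0.457 CPM in round spermatids of steps 4-5. Rbm10 went from 34.0 ± 6.94 to 0.242 ± 0.176 and then 19.4 ± 1.51 CPM. Mbnl3 was not called after meiosis, at 0.164 ± 0.205 and then 0.202 ± 0.0922 CPM. The grouping by chromosome was made after these values were seen.

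The libraries also differed in a way that crosses the genotypes. Median mitochondrial percent per cell was 0.0735 to 0.132 in TA, TB and TF and 0.0085 to 0.0182 in TC, TD and TE. Hnrnpd, an AU-rich element binding hnRNP, was higher in all 3 libraries of the first set than in all 3 of the second in 8 of 12 classes with at least 20 UMI per library, with a median log2 ratio of 0.50. Ddx17 was so in 7 of 11 classes, with a median log2 ratio of 0.34. In round spermatids of step 3 Hnrnpd stood at 43.2, 47.4 and 44.3 CPM in TA, TB and TF and at 25.3, 25.6 and 25.8 CPM in TC, TD and TE. These 2 genes were picked as the highest of the 38 by this ratio, and the cause was not tested. Splits in the other direction were not counted over classes, nor were those of genes outside the 38. Over all cells, not split by class, Tra2b was at 182 to 191 CPM in the first set and 222 to 236 CPM in the second. Hnrnpm was at 89.0 to 95.2 and 108 to 126 CPM. Summed round spermatid markers followed the same sets, at 261 to 289 CPM in TA, TB and TF and 414 to 436 CPM in TC, TD and TE in the class named Round ST(Step 1-2), and at 116 to 129 CPM and 180.1 to 194 CPM in the leptotene to early pachytene class.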
